A study of Homo sapiens with 4 samples.

Results

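The genes described here are 44 interferon response and antigen presentation genes, chosen by name among the 19901 protein-coding genes of the count table. They comprise transcription factors of the interferon pathway, sensors of double-stranded RNA, antiviral effectors, the ISG15 conjugation system and class I antigen presentation genes. TT-Seq captures RNA that cells made in the presence of the nucleoside 4sU, which marks new transcripts for purification. HCT116 cells derive from a human colon cancer, and all libraries came from clone D5 of its KAP1 dTAG derivative, so that control and treated cells share the tagged allele and no other clone was measured. In these cells the compound dTAG-13 directs the tagged KAP1 protein (encoded by TRIM28) to degradation. The cells grew in 7% serum and received DMSO, the vehicle (2 libraries), or 500 nM dTAG-13 (2 libraries) for 8 h, and 500 μM 4sU was present for the last 10 min. The comparison of dTAG with DMSO asks whether an acute loss of KAP1 was followed by new transcription of interferon genes.

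KAP1 is a corepressor that KRAB zinc finger proteins bring to DNA, where it helps to keep endogenous retroviruses silent. RNA or DNA from such elements can be read by sensors of foreign nucleic acid, which switch on type I interferon genes. Secreted interferon then acts through its receptor and JAK kinases on the factor ISGF3, of which STAT2 and IRF9 are subunits, and ISGF3 binds the interferon-stimulated response element (ISRE) in the promoters of its targets. The genes below are the commonly measured targets and mediators of this pathway.

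An ISRE was searched as GAAANNGAAA on both strands in RefSeq promoter windows of GRCh38.p14, which run from 250 bases before to 50 bases after a transcription start. Of the 44 genes, 38 had a window and 24 of these held the motif (63.2%), against 4.38% of the 27305 genes with a window (3.57% of 35116 windows). The gamma-activated sequence (GAS, searched as TTCNNNGAA, which reads the same on both strands) was in 11 of the 38 genes, against 9.38% of all genes. A match of letters is a description and not a bound site. Below are the stretches around the ISRE in the 6 genes with the largest fold changes among those that hold it, read along the gene's strand, with the motif in capitals.
IFIT1: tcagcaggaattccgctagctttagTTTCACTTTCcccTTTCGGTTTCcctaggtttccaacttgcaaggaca
TAP1: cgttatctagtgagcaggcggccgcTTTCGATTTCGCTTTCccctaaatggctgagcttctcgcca
MX1: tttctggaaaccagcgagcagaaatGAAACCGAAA
ISG15: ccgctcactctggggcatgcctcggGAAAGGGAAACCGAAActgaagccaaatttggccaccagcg
IFI27: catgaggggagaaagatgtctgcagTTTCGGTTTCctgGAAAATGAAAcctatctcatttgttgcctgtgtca
IFI6: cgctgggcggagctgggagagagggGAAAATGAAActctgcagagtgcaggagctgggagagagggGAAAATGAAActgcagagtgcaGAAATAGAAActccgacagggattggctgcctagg
The stretches lie at chr10:89392482-89392554 on the plus strand for IFIT1, chr6:32853798-32853863 on the minus strand for TAP1, chr21:41420544-41420578 on the plus strand for MX1, chr1:1013359-1013424 on the plus strand for ISG15, chr14:94110603-94110675 on the plus strand for IFI27 and chr1:27672251-27672373 on the minus strand for IFI6. IFIT1, TAP1, ISG15 and IFI27 held 2 matches each, IFI6 held 3 and MX1 held 1. The matches lay before the start, from position -156 to position -84 relative to it, except in MX1, where the match ran from 11 to 20 bases after it.

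Gene counts per library were between 93105627 and 102314741. TRIM28, the targeted gene, had 61.7 and 69.8 counts per 1000000 (CPM) with DMSO and 53.5 and 47.9 CPM with dTAG (log2 fold change -0.37, adjusted p = 0.019, edgeR). The compound acts on the protein, so this RNA is no check of its degradation. Markers of colon epithelium (EPCAM, CDH1, KRT8, KRT18, KRT19, CLDN4) were all transcribed, with at least 4737 counts in every library, while the leukocyte markers PTPRC, CD3E, CD14 and LYZ had at most 10 counts and CD68 had 332 to 415. Of the stromal markers, COL1A1 had 420 to 538 counts and COL1A2 was at 0. All 436 genes that lie wholly within another gene on the same strand were at 0 in all 4 libraries, against 19.9% of the 608 genes that lie within a gene on the opposite strand only and 11.8% of the 13358 genes that overlap no gene. A 0 in a gene of the first kind therefore carries no information on its transcription.

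No gene of the list passed the test in either direction. Of the 44 genes, 33 had at least 50 counts in all 4 libraries and were tested, and 0 were called higher and 0 lower at an adjusted p under 0.05 in edgeR's quasi-likelihood F test (Benjamini-Hochberg correction across 12612 genes). Over all tested genes, 3.44% were called higher and 3.66% lower. At an unadjusted p under 0.05, 0 of the 33 genes were higher, against 12.3% of all tested genes, and 5 were lower (IFIT1, TAP1, ISG15, HLA-C and IRF1), against 14.3%. DESeq2 also called 0, with an adjusted p given for 29 of the 33 genes. The likelihood ratio test of edgeR called the same 5 genes lower and 0 higher, beside 864 lower and 729 higher of all 12612 tested genes. Calls in the list, and over all tested genes, varied with the library left out. Without DMSO replicate 1 the median log2 fold change of the 33 genes was -0.15, beside -0.019 over all tested genes. It was -0.06 beside -0.0048 without DMSO replicate 2. Without dTAG replicate 1 it was -0.097 beside -0.011, and without dTAG replicate 2 it was -0.12 beside -0.0088.

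The median log2 fold change of the 33 genes was -0.15, beside -0.015 over all tested genes, with 11 genes above 0 and 22 below. Both dTAG libraries lay above both DMSO libraries in 3 genes (ADAR, HERC6 and PARP14), against 28.1% of all tested genes, and below both in 11, against 30.7%. In the other 19 genes the groups overlapped. With TMM scaling, the upper bound of the 95% interval was under 1.5-fold (0.58 on the log2 scale) for 32 of the 33 genes, with HERC6 as the exception, as it was for 12048 of all 12612 tested genes. The interval stayed within 1.5-fold in both directions for 19 of the 33, and for 10002 of all tested genes. These bounds hold for that scaling only. With library sizes set to the ERCC spike-in totals, the median of all genes moved to 0.63 and that of the interferon genes to 0.53, with 32 of the 33 genes above 0, so directions here are relative to the bulk of genes. Those totals were 14798 and 25165 counts with DMSO (0.015% and 0.0265% of gene counts). With dTAG they were 13870 and 9551 counts (0.0136% and 0.0103%). The spike-ins thus differed strongly between the DMSO replicates as well, and a shift of all genes was not tested. Several estimates with ERCC totals were themselves above 0.58, such as those of PARP14 (0.73), TRIM25 (0.72), ADAR (0.71) and IFIH1 (0.69), and none was called. Relative to the median of all genes, the median of the interferon genes was -0.13 with TMM scaling and -0.10 with ERCC totals. In bulk libraries, fewer cells that transcribe a gene and less new RNA per cell cannot be told apart.

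**Figure D1:**
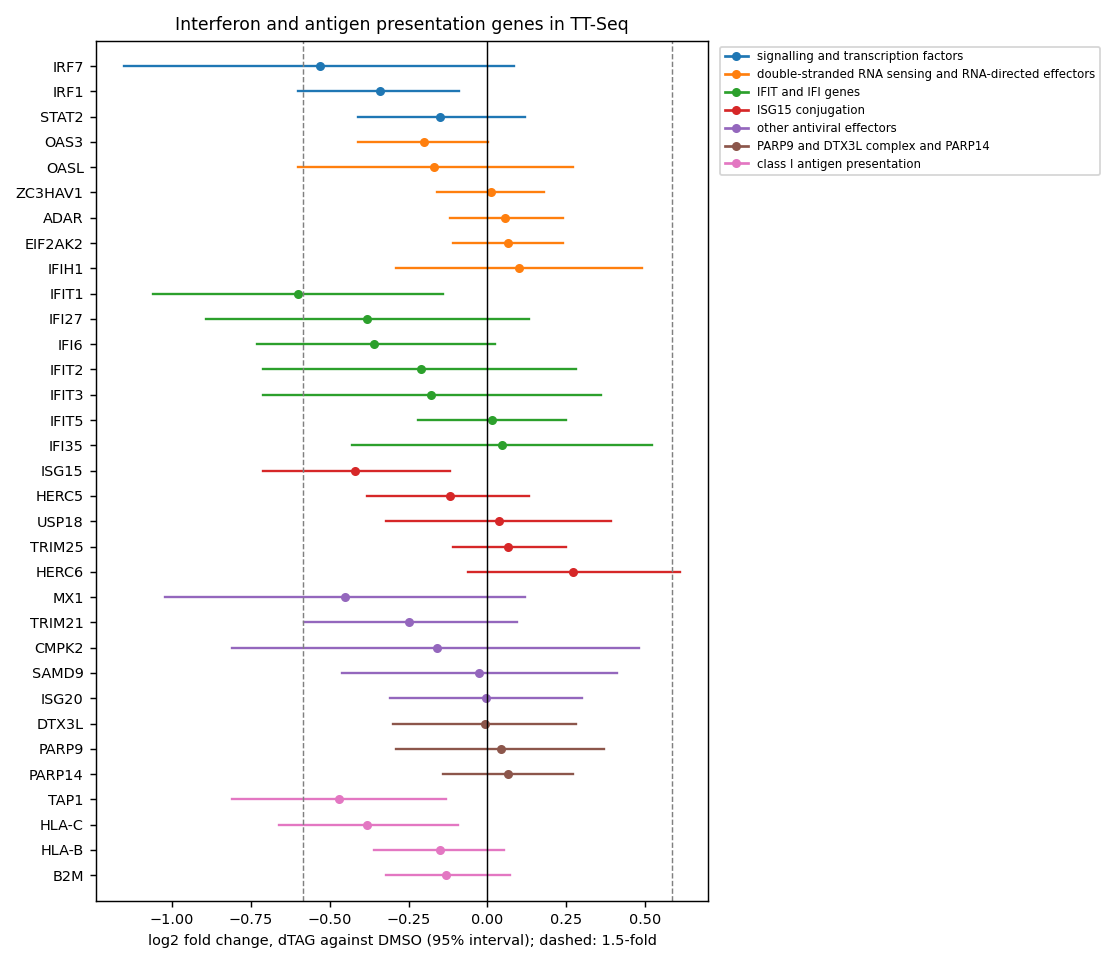
Log2 fold change of dTAG against DMSO (x axis) for the 33 tested interferon genes, grouped and coloured by role, with points for the estimate over 2 libraries per condition, bars for the 95% interval and dashed lines at a 1.5-fold change. The estimates run from -0.60 (IFIT1) to 0.27 (HERC6), and with TMM scaling the bar of HERC6 alone reaches past the dashed line on the right; with ERCC totals as library sizes 32 of the 33 estimates lie above 0.

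The genes differed far more from each other than between conditions. To compare levels between genes, CPM were divided by the kilobases of the gene that no other gene on its strand covers. Among the 33 tested genes, 16 ranked under the 25th percentile of all tested genes by this level with DMSO, 12 between the 25th and the 75th and 5 above it. The highest were HLA-C (17.0 CPM per kb over its 742 countable bases), TRIM25 (6.66), B2M (5.94), ADAR (4.00) and IFIT5 (3.20), as means of the DMSO libraries. The lowest tested genes were MX1 (0.0229), CMPK2 (0.0310), IFIT2 (0.0696), IFIH1 (0.0745), HERC6 (0.0822) and IFIT3 (0.0923), all under the 10th percentile. Neighbours in this order, such as IFIT2, IFIH1 and HERC6, had values in single libraries that overlapped. HLA-B, at 0.379 CPM per kb over 85058 countable bases, also ranked under the 25th percentile. Its rank and that of HLA-C depend on the annotated intervals. The whole list accounted for 0.0869% and 0.0915% of all counts in the DMSO libraries and for 0.0851% and 0.0829% in the dTAG libraries.

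**Figure D2:**
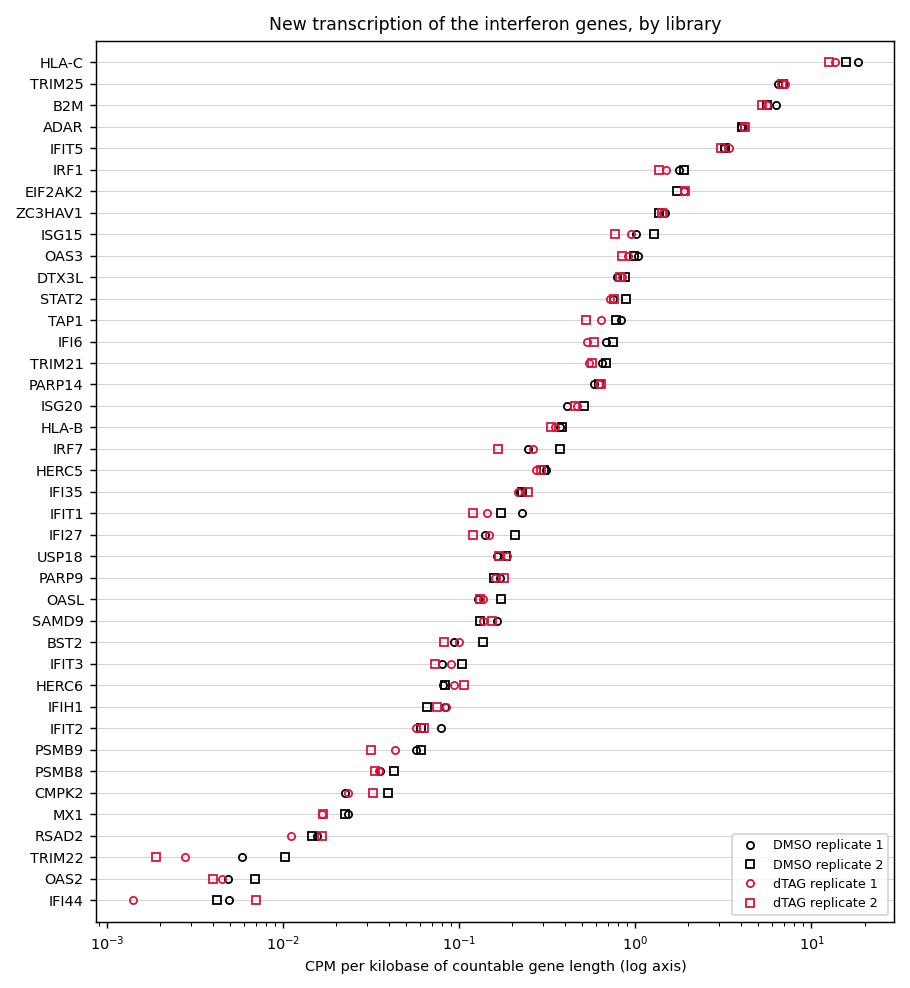
CPM per kilobase of countable gene length (x axis, log scale) for the 40 interferon genes with a count in every library, ordered by their DMSO mean, with black marks for the 2 DMSO libraries and red marks for the 2 dTAG libraries (circles, replicate 1; squares, replicate 2). Levels run from the 17.0 CPM per kb of HLA-C down to IFI44, and the 4 marks of a gene lie close together on this scale except in genes with few counts.

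Upstream of the pathway, the genes that encode interferons had few or no counts. Of 21 such genes, 19 had 0 counts in all 4 libraries, IFNB1 among them, where a count of 0 allows up to 3 counts (0.0300 to 0.0332 CPM). IFNA5 had 3 counts in dTAG replicate 1 alone. IFNE, the interferon of epithelia, had 43 and 47 counts with DMSO and 31 and 23 with dTAG, under the count minimum. In none of the 21 did both dTAG libraries exceed the DMSO libraries, against 28.1% of the tested genes, and in the 19 genes at 0 no difference can show.

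Receptors, JAK kinases and STATs were transcribed, and 0 of the 10 tested genes (of 11 listed) were called, with 0 at an unadjusted p under 0.05 and by DESeq2 no call among them either. Over all tested genes 3.44% were called higher and 3.66% lower by edgeR, and 12.3% and 14.3% were at an unadjusted p under 0.05. Their median log2 fold change was 0.031. IFNAR2, which encodes a chain of the type I receptor, was at 0 and lies within the read-through gene IFNAR2-IL10RB on the same strand.

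Among 14 sensors and adaptors that lie upstream of interferon, 11 were tested and only TRAF3 was called, against 3.44% called higher and 3.66% lower of all tested genes. TRAF3 links several sensors to the kinases that activate interferon genes. It had 180 and 163 CPM with DMSO and 213 and 213 CPM with dTAG, and it rose by 0.31 on the log2 scale (SE 0.089, adjusted p = 0.038, edgeR). It was not called with upper-quartile scaling, with ERCC totals, under the replicate block or without either dTAG library. RIGI, a sensor of double-stranded RNA with an uncapped end, had 39.1 and 39.9 CPM with DMSO and 40.8 and 42.5 CPM with dTAG (log2 fold change 0.076, adjusted p = 0.62, edgeR). STING1, the adaptor of the DNA-sensing pathway, was lower in both dTAG libraries (6.48 and 6.28 CPM) than in both DMSO libraries (7.98 and 8.90 CPM). Its log2 fold change was -0.40 (95% interval -0.71 to -0.092) and did not pass the test (adjusted p = 0.095, edgeR). It was -0.21 after removal of trends on gene GC content and length, -0.48 without DMSO replicate 1 and -0.32 without DMSO replicate 2. CGAS, which makes the messenger that STING1 binds, had 26 and 29 counts with DMSO and 25 and 27 with dTAG, too few for the test.

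The transcription factors of the list were IRF1, STAT2, IRF7 and IRF9. IRF1 (ENSG00000125347), an interferon-induced activator of antigen presentation genes, had 16.2 and 17.4 CPM with DMSO and 13.8 and 12.6 CPM with dTAG, without overlap between the groups. The log2 fold change was -0.34 (95% interval -0.60 to -0.089, adjusted p = 0.084, edgeR) and came to -0.15 once trends on gene GC content and length were removed. STAT2, the ISGF3 subunit with the activation domain, had 13.9 and 16.4 CPM with DMSO and 13.3 and 14.1 CPM with dTAG, with overlapping groups (log2 fold change -0.15). IRF7, which amplifies the interferon response, had the second lowest fold change of the list. It had 0.848 and 1.29 CPM with DMSO and 0.899 and 0.576 CPM with dTAG, so that the groups overlapped (log2 fold change -0.53, SE 0.30, adjusted p = 0.25, edgeR). That value was -0.19 without DMSO replicate 2, -0.25 without dTAG replicate 2, -0.15 after the GC and length trends were removed and 0.13 with an ERCC factor as a covariate. IRF9 was at 0 and lies within a longer gene (ENSG00000259529) on the same strand, so its transcription was not measured.

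Among the genes that sense or act on double-stranded RNA, ADAR, EIF2AK2 and ZC3HAV1 had deep counts and narrow intervals (SE 0.083 to 0.086). TRIM25, of the ISG15 group, was as deeply counted (SE 0.086), while IFIH1 and OASL had far fewer counts (SE 0.19 and 0.21). EIF2AK2 encodes the kinase PKR, which halts translation on binding double-stranded RNA. It had 109 and 100 CPM with DMSO and 109 and 110 CPM with dTAG, a log2 fold change of 0.064 with a 95% interval from -0.11 to 0.24. ADAR, the enzyme that edits adenosines in such RNA, had 183 and 185 CPM with DMSO and 189 and 194 CPM with dTAG (log2 fold change 0.057, 95% interval -0.12 to 0.24). ZC3HAV1, an RNA-binding antiviral protein, was at 0.012. IFIH1 (ENSG00000115267), the sensor MDA5 of long double-stranded RNA, had 4.29 and 3.40 CPM with DMSO and 4.36 and 3.87 CPM with dTAG, with overlapping groups. Its log2 fold change of 0.099 (SE 0.19, adjusted p = 0.76, edgeR) was the second highest of the list, and it was -0.087 with the ERCC factor, -0.075 after removal of the GC and length trends and -0.060 without DMSO replicate 2. The OAS enzymes make a messenger that activates the nuclease RNase L. OAS3 had 35.8 and 34.1 CPM with DMSO and 31.6 and 29.1 CPM with dTAG (log2 fold change -0.20, 95% interval -0.41 to 0.0018), and OASL was at -0.17. OAS1, with 0 and 3 counts with DMSO and 4 and 2 with dTAG, and OAS2 were under the count minimum.

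The IFIT proteins bind viral RNA, and IFIT1 recognizes RNA caps that lack a methyl group. IFIT1 (ENSG00000185745, chr10:89392546-89406486) had the lowest fold change of the list. It had 3.16 and 2.41 CPM with DMSO (2.78 ± 0.534, SD, n = 2) and 2.0 and 1.67 CPM with dTAG (1.84 ± 0.229, SD, n = 2). Both dTAG libraries lay below both DMSO libraries. The log2 fold change was -0.60 (SE 0.22, 95% interval -1.06 to -0.14, adjusted p = 0.096, edgeR). It was -0.67 after removal of the GC and length trends (adjusted p = 0.028, edgeR), and -0.39 without DMSO replicate 1. With the ERCC factor as a covariate, which is partly aligned with treatment, it was -0.81 (adjusted p = 0.038, edgeR). IFIT2 (-0.21) and IFIT3 (-0.18) had overlapping groups, as did IFIT5 (0.014), which had the highest level of the 4 at 3.20 CPM per kb with DMSO. These 4 genes are neighbours within chr10:89283694-89421001, and IFIT1, IFIT2 and IFIT3 lie inside LIPA, a lysosomal lipase gene on the opposite strand. Reads were assigned by strand as far as the 0 counts above show, and the share of antisense reads from LIPA was not tested.

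Of the IFI genes, 3 were tested. IFI6, a membrane protein that limits viral replication, had 4.20 and 4.58 CPM with DMSO and 3.28 and 3.59 CPM with dTAG, a log2 fold change of -0.36 with a 95% interval from -0.73 to 0.023. IFI27 had 1.67 and 2.47 CPM with DMSO and 1.75 and 1.42 CPM with dTAG (-0.38, groups overlapping). IFI35 had 1.72 and 1.74 CPM with DMSO and 1.67 and 1.91 CPM with dTAG (0.045, groups overlapping). The promoters of IFI6 and IFI27 hold several ISRE matches, as printed above, and neither gene passed the test.

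ISG15 is a ubiquitin-like modifier that is among the most strongly induced products of interferon, and HERC5, HERC6 and TRIM25 are ligases associated with it or with RIGI. ISG15 (ENSG00000187608, chr1:1001138-1014541) had 13.5 and 17.1 CPM with DMSO (15.3 ± 2.54, SD, n = 2) and 12.6 and 10.3 CPM with dTAG (11.4 ± 1.64, SD, n = 2). Both dTAG libraries lay below both DMSO libraries, DMSO replicate 1 by a small margin. The log2 fold change was -0.42 (SE 0.14, adjusted p = 0.074, edgeR), -0.58 without DMSO replicate 1 and -0.24 without DMSO replicate 2. It was -0.19 after removal of the GC and length trends and -0.064 with the ERCC factor. HERC6 (ENSG00000138642, chr4:88378739-88443111) had the highest fold change of the list. It had 5.21 and 5.37 CPM with DMSO (5.29 ± 0.115, SD, n = 2) and 5.97 and 6.82 CPM with dTAG (6.39 ± 0.597, SD, n = 2). The dTAG libraries were the higher pair, and the log2 fold change was 0.27 (SE 0.16, 95% interval -0.062 to 0.61, adjusted p = 0.28, edgeR). It was 0.17 without dTAG replicate 2 and 0.15 after removal of the GC and length trends. Its neighbour HERC5, 15.2 and 14.9 CPM with DMSO and 13.4 and 14.2 CPM with dTAG, was on the other side of 0 (-0.12). TRIM25 was at 0.066 (adjusted p = 0.65, edgeR), and after removal of the GC and length trends at 0.14 with an adjusted p of 0.022. USP18, the protease that takes ISG15 off proteins and dampens receptor signaling, was at 0.038.

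Of the other antiviral effectors, 5 of 9 were tested. MX1, a GTPase that blocks influenza virus, had 0.909 and 0.872 CPM with DMSO and 0.649 and 0.654 CPM with dTAG, which rest on 59 to 90 counts. The groups did not overlap, and the log2 fold change was -0.45 with a 95% interval from -1.02 to 0.12. TRIM21, a receptor for antibody-bound virus, was at -0.25 with both dTAG libraries below both DMSO libraries. ISG20, an exonuclease, had 8.33 and 10.4 CPM with DMSO and 9.43 and 9.27 CPM with dTAG (log2 fold change -0.0033). CMPK2 and SAMD9 were at -0.16 and -0.027 with overlapping groups. PARP9 and DTX3L form a complex, and PARP14 is encoded beside them on chromosome 3. PARP9 and DTX3L were at 0.042 and -0.0072 with overlapping groups. PARP14 (ENSG00000173193) had 29.3 and 31.3 CPM with DMSO and 31.3 and 32.1 CPM with dTAG, and its log2 fold change of 0.066 (SE 0.098, 95% interval -0.14 to 0.27, adjusted p = 0.69, edgeR) was the third highest of the list and -0.031 after removal of the GC and length trends.

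The class I antigen presentation genes encode the peptide-presenting molecules and the machinery that loads them. All 4 tested genes of this group had log2 fold changes below 0 with the main scaling, and above 0 with ERCC totals as library sizes. TAP1 (ENSG00000168394, chr6:32845209-32853978), a chain of the transporter that brings peptides into the endoplasmic reticulum, had 7.24 and 6.85 CPM with DMSO (7.04 ± 0.278, SD, n = 2) and 5.56 and 4.60 CPM with dTAG (5.08 ± 0.681, SD, n = 2). Both dTAG libraries lay below both DMSO libraries. The log2 fold change was -0.47 (SE 0.16, 95% interval -0.81 to -0.13, adjusted p = 0.078, edgeR), and it was -0.34 after removal of the GC and length trends (adjusted p = 0.095, edgeR). It was -0.43 without DMSO replicate 1, -0.51 without DMSO replicate 2, -0.61 without dTAG replicate 1 and -0.34 without dTAG replicate 2. B2M, the invariant chain of class I molecules, had 46.3 and 41.5 CPM with DMSO and 41.6 and 39.0 CPM with dTAG, with overlapping groups (log2 fold change -0.13).

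HLA-B had 31.9 and 32.6 CPM with DMSO and 29.7 and 28.3 CPM with dTAG. The dTAG libraries were the lower pair, and the log2 fold change was -0.15 (95% interval -0.36 to 0.051, adjusted p = 0.32, edgeR), or -0.23 with an adjusted p of 0.026 (edgeR) after removal of the GC and length trends. HLA-C had 13.6 and 11.6 CPM with DMSO and 10.1 and 9.33 CPM with dTAG, again without overlap (log2 fold change -0.38, 95% interval -0.66 to -0.093, adjusted p = 0.089, edgeR). Its value was -0.11 after removal of those trends and -0.51 with an adjusted p of 0.013 (edgeR) with the ERCC factor. In the annotation of the count table the 2 genes share 2640 bases on the same strand, which leaves 742 bases of HLA-C to be counted, and classical HLA genes resemble each other closely, so the split of reads between them is uncertain. HLA-B spans 87698 bases in that annotation (chr6:31269491-31357188). Its counts, and the length and GC content used to remove trends, are those of this whole interval.

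**Figure D3:**
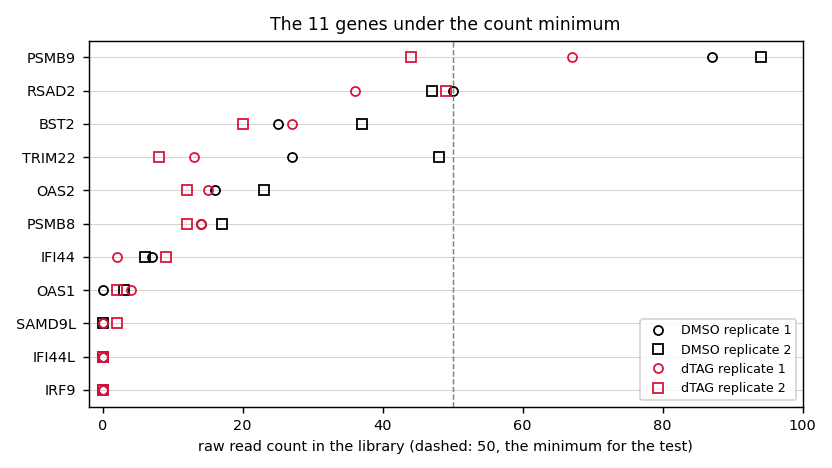
Raw read counts per library (x axis) for the 11 interferon genes under the minimum of 50 counts in all 4 libraries (dashed line), with black marks for DMSO and red marks for dTAG. TRIM22, OAS2 and PSMB9 have both dTAG libraries below both DMSO libraries, and no gene has both dTAG libraries above both DMSO libraries. The shares were 30.7% and 28.1% over the tested genes, which have at least 50 counts in every library. IRF9 and IFI44L are at 0, where no difference can show.

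The 11 genes under the count minimum include several that are standard readouts of interferon. RSAD2, the antiviral enzyme viperin, had 50 and 47 counts with DMSO and 36 and 49 with dTAG. BST2, which tethers budding virions, had 25 and 37 counts with DMSO and 27 and 20 with dTAG. IFI44 had 7 and 6 counts with DMSO and 2 and 9 with dTAG. The groups overlapped in all 3 of these genes. IFI44L was at 0 in all libraries and SAMD9L in 3 of them, with 2 counts in dTAG replicate 2, and neither overlaps another gene of the table, so that their levels were at or under the 3 counts that a 0 allows. PSMB8 and PSMB9 encode subunits of the immunoproteasome, which cuts peptides for class I molecules, and are neighbours of TAP1. PSMB9 had 87 and 94 counts with DMSO and 67 and 44 with dTAG, and PSMB8 had 14 and 17 with DMSO and 14 and 12 with dTAG. TRIM22 had 27 and 48 counts with DMSO and 13 and 8 with dTAG, and OAS2 had 16 and 23 with DMSO and 15 and 12 with dTAG. Without a count filter TRIM22 had a log2 fold change of -1.76 (SE 0.61, adjusted p = 0.048, edgeR), ISG15 and TAP1 were called lower too, and PSMB9 was at -0.64 (adjusted p = 0.25, edgeR). In that fit 744 of 17450 genes were called lower.

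Beyond the list, 121 other genes of the pathway were examined, of which 70 were tested, 2 were called higher and 4 lower, against 3.44% higher and 3.66% lower of all tested genes. Among 39 other interferon-stimulated genes, 25 were tested. NT5C3A, an interferon-induced pyrimidine nucleotidase, rose by 0.29 (142 and 138 CPM with DMSO, 164 and 178 CPM with dTAG, adjusted p = 0.047, edgeR). IFITM3, a membrane protein that blocks the entry of viruses, fell by 0.33 (64.1 and 58.5 CPM with DMSO, 52.9 and 44.4 CPM with dTAG, adjusted p = 0.041, edgeR). UBE2L6, the conjugating enzyme for ISG15, fell by 0.45 (13.2 and 15.5 CPM with DMSO, 10.3 and 10.8 CPM with dTAG, adjusted p = 0.046, edgeR), and LY6E, a surface protein, fell by 0.36 (49.4 and 50.5 CPM with DMSO, 42.9 and 34.8 CPM with dTAG, adjusted p = 0.034, edgeR). These changes are on the log2 scale. None of the 6 calls remained under the replicate block, with ERCC totals or without either dTAG library. Under the replicate block the fold changes themselves hardly moved, to -0.34 for IFITM3, -0.37 for LY6E, -0.44 for UBE2L6, -0.36 for PTPN6, 0.29 for NT5C3A and 0.31 for TRAF3. After removal of the GC and length trends, LY6E (-0.044), IFITM3 (-0.14), PTPN6 (-0.13) and NT5C3A (0.14) were not called either, while UBE2L6 and TRAF3 were. With ERCC totals IFITM3, UBE2L6, LY6E and PTPN6 had values from 0.23 to 0.31, under the 0.63 of all genes. PTPN6, a phosphatase that dampens cytokine receptors and the only called gene of 7 negative regulators, fell by 0.36 (27.9 and 32.1 CPM with DMSO, 23.2 and 23.5 CPM with dTAG, adjusted p = 0.043, edgeR).

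No other class I gene was called among the 12 tested of 16, by edgeR or by DESeq2, with 2 lower and 0 higher at an unadjusted p under 0.05. Of all tested genes, 14.3% were lower and 12.3% higher at that level, and edgeR called 3.66% and 3.44%. Their median log2 fold change was -0.17, beside -0.27 for the 4 tested class I genes of the list. NLRC5, the transactivator of class I genes, had 26.9 and 28.3 CPM with DMSO and 26.5 and 29.2 CPM with dTAG (0.010). TAP2, the partner of TAP1, was at 0 and lies within another gene on its strand, so its transcription was not measured. Of the 13 class II genes, 5 were tested and 0 were called by edgeR or by DESeq2, with 1 lower at an unadjusted p under 0.05, against the same shares of all tested genes.

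**Figure D4:**
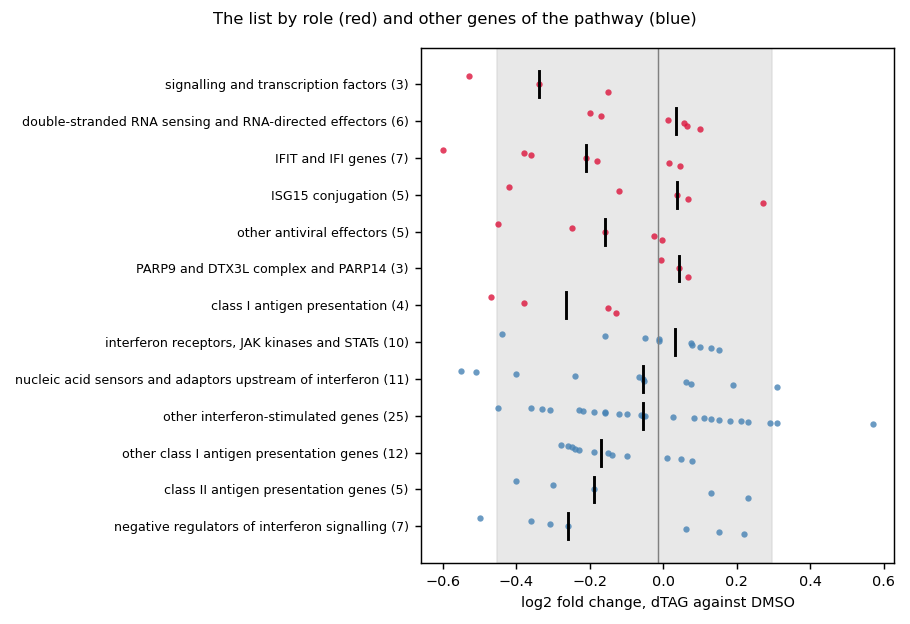
Log2 fold change of dTAG against DMSO (x axis) for each tested gene of the list by role (red) and for other genes of the pathway (blue), with black bars for the group medians, the number of tested genes in parentheses, a grey line at the median of all tested genes and a grey band from their 5th to 95th percentile (-0.45 to 0.30). Role medians run from -0.34 for the transcription factors to 0.042 for PARP9, DTX3L and PARP14, and with ERCC totals as library sizes all values shift upward with those of all genes.

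Fold changes followed base composition and length across the genome. Over the 12612 tested genes, Spearman's rho of the log2 fold change was -0.56 with gene GC content and 0.42 with gene length, and over the 33 interferon genes it was -0.45 and 0.54. All points share the same 4 libraries, and genes are not independent replicates. The list had a median GC content of 45.3% and a median length of 20132 bases, beside 44.9% and 36149 bases for all tested genes. IRF7, at 67.1% GC, HLA-C at 59.3% and ISG15 at 56.4% are rich in GC, and their log2 fold changes came to -0.15, -0.11 and -0.19 once both trends were removed. IFIT1, at 38.6% GC, came to -0.67. After removal of both trends from each library, the median of the list was -0.13 beside -0.0015 for all genes. IFIT1 and HLA-B were then called lower and TRIM25 higher, beside 943 lower and 1344 higher of all 12612 tested genes.

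**Figure D5:**
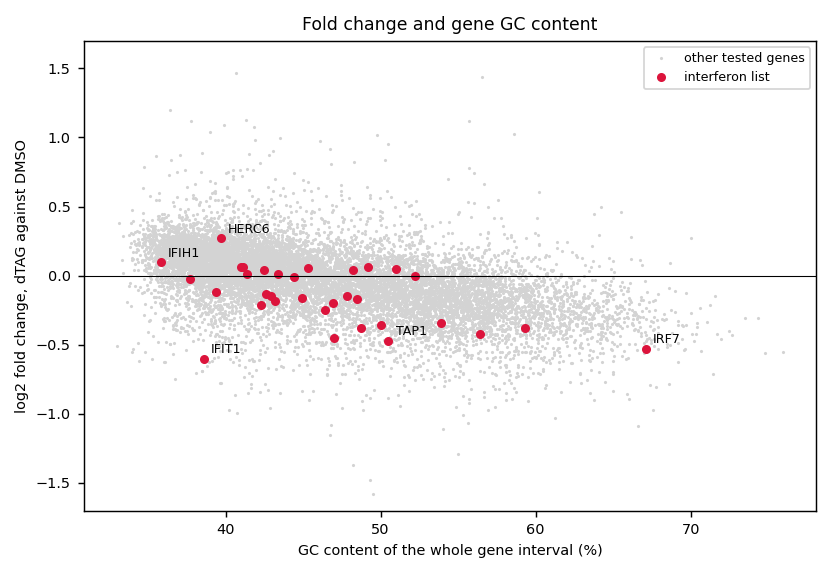
Log2 fold change of dTAG against DMSO (y axis) against GC content of the whole gene interval in percent (x axis), with tested genes in grey and the 33 tested interferon genes in red. Grey points slope downward with GC content, IRF7 (67.1% GC) and TAP1 (50.5% GC) lie inside the grey cloud and IFIT1 (38.6% GC) lies near its lower edge.

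The same fit was summarized by the presence of an ISRE in a promoter window. Of the 24 genes with the motif, 19 were tested, their median log2 fold change was -0.13, and 3 were lower at an unadjusted p under 0.05. Of the 14 genes with a window and no motif, 10 were tested, their median was -0.067, and 2 were lower. In both sets 0 genes were higher at that level and 0 were called. Of all tested genes, 14.3% were lower and 12.3% higher at that level, and 3.66% and 3.44% were called.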

How the data were processed

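Raw counts for all genes and ERCC spike-in RNAs were deposited by the authors, who used Trim Galore 0.6.4 for trimming, STAR for mapping to hg38 and featureCounts of Subread 1.6.3 for counting over whole protein-coding genes. Strand and overlap settings are not given in the sources used here. The counts are whole numbers without normalization. The methods of the study call the 2 libraries of a condition biological replicates, and p-values rest on the spread between such libraries. The main test shares information on this spread across genes (20.9 total degrees of freedom for each gene). A p-value or interval therefore does not measure the spread of that gene's own replicates alone.

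The test took genes that reached 50 counts in every library, 12612 of 19901, and their counts were 99.9% of all gene counts. Counts were scaled by TMM (factors 0.970 to 1.05) and tested with edgeR 4.0.16 in R 4.3.3, with glmQLFit and glmQLFTest, two-sided, without a replicate block, and p-values were Benjamini-Hochberg adjusted over all tested genes. A call is an adjusted p under 0.05. TMM stood in for the study's spike-in factor because neither its function nor its number of factors is given in the sources used here. SE is the size of the log2 fold change over the square root of F. CPM are TMM-scaled, and levels between genes are CPM per kilobase that no other gene on the same strand covers. GC content was computed over the gene interval in hg38. The fit was tested on simulated counts.

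The genes of the list, the 121 other genes of the pathway and the markers were chosen with earlier results of these data known. Full statistics are given for called genes and the 3 highest and 3 lowest fold changes, counts for genes under the minimum, and the first genes of each role as examples. Genes of the pathway outside the list are named where called, with IFNB1, RIGI, CGAS, STING1, NLRC5 and TAP2 whatever their values (some other genes and markers fixed in the same way are not reported here), and others named were chosen after their values were seen. Alternatives were DESeq2 1.42.0, upper-quartile scaling, ERCC totals, 1 ERCC factor as a covariate (14 spike-ins), the likelihood ratio test, 10 counts or no minimum, a replicate block, genes without overlap, removal of GC and length trends by lowess (span 0.3) and leaving out each library.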

Additional observations from a re-analysis of the deposited data

How the results depend on the processing

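The median log2 fold change of the interferon genes, -0.15, stayed below that of all tested genes under every setting run, by between 0.047 with the ERCC factor and 0.14 without DMSO replicate 1. It was itself -0.22 with upper-quartile scaling, 0.53 with ERCC totals (where the median of all genes was 0.63), -0.053 with the ERCC factor and -0.085 over genes that overlap no other gene, and between -0.15 and -0.06 when each library was left out in turn. Calls among the interferon genes, 0 higher and 0 lower, came to 1 lower with upper-quartile scaling and 2 lower with the ERCC factor. They came to 5 lower with the likelihood ratio test, 3 lower without a count filter, and 1 higher and 2 lower after removal of the GC and length trends. Of all 12612 tested genes, 255 were called higher and 869 lower with upper-quartile scaling, and 797 and 525 with the ERCC factor. The likelihood ratio test called 729 and 864, and removal of the trends gave 1344 and 943. Without a count filter 673 and 744 of 17450 genes were called. With 1 library left out, the lone library is assumed to vary like the other condition, and the cause of these moves was not tested.

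Of the other genes of the pathway, 2 were called higher and 4 lower. These became 0 and 8 with upper-quartile scaling, 0 and 0 with ERCC totals, 8 lower with the likelihood ratio test and 7 lower without a filter, 5 higher with the ERCC factor, and 0 to 12 higher and 0 to 19 lower when a library was left out. The 4 lower calls turned positive with ERCC totals, at 0.28 for IFITM3, 0.27 for LY6E, 0.23 for UBE2L6 and 0.31 for PTPN6. DESeq2 and the minimum of 10 counts changed no count. Among the fits with a library left out, calls in these genes were most frequent without DMSO replicate 1. That fit also called the most of all tested genes. Calls in these genes were least frequent without either dTAG library, where the fewest of all tested genes were called. The ranges therefore followed the calls over all tested genes and are not specific to the pathway.

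The replicate numbers do not pair the libraries by any label, and same-numbered libraries deviated from their group means with a correlation of -0.245 across genes. With a replicate block 0 interferon genes were called, 0 other genes of the pathway were called higher and 0 lower, and the median was -0.13. Of all 12612 tested genes, 162 were called higher and 178 lower in that fit. A crossed replicate block, chosen after seeing the data, gave 0 interferon genes higher and 5 lower, and 5 other genes higher and 13 lower. It called 1587 higher and 1603 lower of all tested genes. Of 619 values of single genes under the alternatives, 475 kept their sign and their side of the threshold, 28 passed it where the reported value did not, 31 lost it and 85 changed sign.

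Estimates near 0 changed sign under several settings. With ERCC totals so did larger ones, such as those of IRF7 (-0.53 in the main fit) and TAP1 (-0.47). Apart from the 4 calls named above, no gene that changed sign was called in either fit. With ERCC totals the sign changed in STAT2 (0.54), IRF1 (0.31), IRF7 (0.15), OAS3 (0.43), OASL (0.53), IFIT2 (0.40), IFIT3 (0.50), IFI6 (0.32), IFI27 (0.31), ISG15 (0.25), HERC5 (0.52), MX1 (0.19), ISG20 (0.68), CMPK2 (0.61), SAMD9 (0.59), TRIM21 (0.42), DTX3L (0.66), B2M (0.49), HLA-B (0.49), HLA-C (0.23), TAP1 (0.15) and STING1 (0.26). With the ERCC factor it changed in STAT2 (0.017), IRF7 (0.13), IFIH1 (-0.087), OASL (0.19), EIF2AK2 (-0.034), ZC3HAV1 (-0.053), IFIT3 (0.21), IFI27 (0.16), IFI35 (-0.00022), ISG20 (0.25), CMPK2 (0.35), PARP9 (-0.11) and DTX3L (0.12). With upper-quartile scaling it changed in EIF2AK2 (-0.0089), ADAR (-0.017), ZC3HAV1 (-0.06), IFIT5 (-0.06), IFI35 (-0.028), TRIM25 (-0.0081), USP18 (-0.036), PARP9 (-0.031), PARP14 (-0.0078) and NLRC5 (-0.064). After removal of the GC and length trends it changed in IFIH1 (-0.075), EIF2AK2 (-0.031), ZC3HAV1 (-0.049), IFIT5 (-0.0087), ISG20 (0.14), PARP9 (-0.02), DTX3L (0.016), PARP14 (-0.031) and RIGI (-0.052). ISG20 also moved to 0.0091 with DESeq2, 0.0032 with the minimum of 10 counts, 0.0038 without a filter, 0.0051 with the replicate block and 0.0034 with the crossed block, DTX3L to 0.0049 with DESeq2 and NLRC5 to -4.9e-05 over genes without overlap. Over the 4 fits that leave out a library, signs changed in IFIH1 (-0.06 to 0.28), OASL (-0.36 to 0.063), ZC3HAV1 (-0.038 to 0.063), IFIT3 (-0.35 to 0.024), IFIT5 (-0.065 to 0.091), IFI35 (-0.053 to 0.14), USP18 (-0.045 to 0.13), ISG20 (-0.15 to 0.16), CMPK2 (-0.51 to 0.30), SAMD9 (-0.18 to 0.14), PARP9 (-0.048 to 0.13), DTX3L (-0.081 to 0.07) and NLRC5 (-0.06 to 0.081).

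With 2 libraries per condition, the spread between replicates limits the tests of well-counted genes. For MX1, CMPK2, IRF7 and the 11 genes under the minimum, the small number of counts adds to it.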

Other observations

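Of the 51 other genes of the pathway under the count minimum, 35 had at most 3 counts in every library. In 3 of the 51 both dTAG libraries lay above both DMSO libraries and in 5 they lay below, against 28.1% and 30.7% of the tested genes, which have at least 50 counts in every library. These genes were chosen after their values were seen. CCL5, a chemokine that interferon regulatory factors and NF-κB induce, had 1 and 1 counts with DMSO and 8 and 10 with dTAG. It overlaps no other gene of the table, and its counts are too few for the test. HLA-G, a class I molecule of the placenta, had 9 and 8 counts with DMSO and 20 and 10 with dTAG, and ZBP1, a sensor of Z-form nucleic acid, had 0 and 0 with DMSO and 1 and 2 with dTAG. The genes on the other side were IFNE, GBP2 (20 and 15 counts with DMSO, 6 and 8 with dTAG), PSMB10 (36 and 52, 34 and 30), HLA-DRA (16 and 17, 10 and 15) and HLA-DRB1 (43 and 53, 41 and 33). No fold change is given for these genes, since several of the values are at or under the limit that a count of 0 allows.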
